A study of Homo sapiens with 24 samples.

Results

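The comparison described here is the ligand without radiation against no treatment in HEK, an established human line that came from embryonic kidney. It holds 12 of the 24 arrays of the series, taken from their titles: untreated cells and cells given 50 uM of a DNA minor groove binding ligand. The labels name the compound only by that description. Cells of both groups were plated 24 h earlier and were incubated for 4 h after treatment before RNA was prepared, and neither group was irradiated. Each treatment has 3 replicate numbers, and each number has an array lettered A and one lettered B, which were taken as 1 sample, so n = 3 per treatment. The other 12 arrays are of cells given 2 Gy, without the ligand or 1 h after it, and they appear below only for the ligand difference in irradiated cells. Whether the numbers were separate cultures is not stated. The p-values below therefore speak only of variation among these 6 samples, and that variation may be technical.

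Minor groove binders are small molecules that lie along the narrow groove of the double helix, mostly over stretches rich in A and T. Members of this class can displace proteins from DNA and disturb topoisomerases, and some of them, such as the Hoechst dyes, have been studied as protectors against ionizing radiation. The ligand-only arm compares transcript levels with and without such a compound in cells given no radiation.

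Each letter carried 19700 human probes, and the letters shared 0 of them, so 39400 probes were measured per sample. The probes have array identifiers only. Of these, 0 matched the human gene table used here, so the p53, DNA repair, heat shock, histone and other gene lists drawn up for this comparison, and the markers of HEK cells, were not analysed here. Results are given for probes. Median deposited intensity lay between 168 and 677 over the 12 arrays, and the arrays of number 3 were the dimmest, at 168 to 219. Not detected was entered for 14 of 236400 values. On 6 of the 12 arrays, 96 values lay above 65535, the most that a 16-bit scan can hold.

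The treated and untreated arrays of one number were far more alike than arrays of one treatment. After quantile normalization within letter, the Spearman correlation across probes was 0.919 to 0.944 for the 6 pairs of the same number. When the treatment was shared and the number was not, it was 0.406 to 0.771, with a median of 0.477. A probe's median standard deviation over the 3 untreated samples was 0.51 log2 units for letter A probes and 0.42 for letter B probes. The median standard deviation of its 3 pair differences, ligand minus untreated, was 0.23 and 0.19. The comparison was therefore made within pairs, with replicate number as a block.

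In the paired limma fit no transcript level differed between ligand-treated and untreated cells at an adjusted p under 0.05. The count was 0 of 39400 probes (0%), and the lowest adjusted p was 0.822. At an unadjusted p under 0.05 there were 757 higher probes (1.92%) and 877 lower probes (2.23%). Together these were 4.15% of the probes tested, where uniform p-values would give 5%. Higher probes made up 46.3% of them, 9.26% on the values as deposited and 56.1% in the authors' processed values. At an unadjusted p under 0.01 the balance was on the lower side, with 39 higher probes (0.099%) and 94 lower probes (0.239%). The size of that imbalance depended on the scale and the fit: there were 12 higher and 254 lower on the values as deposited, 44 and 63 with median centring, 49 and 56 in the authors' processed values, and 11 and 17 over all 12 arrays with the replicate block. The lower ones had a median log2 difference of -0.55 and the higher ones of 0.51. Both letters leaned the same way at this level, with 50 lower and 15 higher on letter A and 44 lower and 24 higher on letter B. The letters were taken as arrays of the same samples, so they are not independent repeats.

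The intervals of most probes were narrow in this fit. The median standard error of a log2 difference was 0.13, and the median half-width of its 95% interval was 0.33. Over all 12 arrays with the replicate block the median standard error was 0.22, and without the block on the same 6 arrays it was 0.37. For 93.7% of probes the whole interval lay within 2-fold in either direction, without adjustment for the number of probes. These intervals are for the signal of a spot, and many probes were no brighter than the plant control spots described below, so a narrow interval does not by itself bound the change of a transcript. The differences centred near 0, with a median of 0.01, and had a standard deviation of 0.24 across probes, at 0.26 on letter A and 0.21 on letter B. The middle 98% of them ran from -0.69 to 0.59 log2 units. Differences beyond 2-fold numbered 267, of which 114 were higher (0.289% of probes) and 153 lower (0.388%). Of those, 41 higher and 63 lower probes had one sign in all 3 pairs.

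Each pair by itself held many wide differences, and most of them were not beyond 2-fold in another pair. Beyond 2-fold there were 701 probes in number 1 (1.78% of all), 971 in number 2 (2.46%) and 1013 in number 3 (2.57%). In number 1 these were 272 higher and 429 lower, in number 2 they were 465 and 506, and in number 3 they were 365 and 648. Among probes measured in both pairs, numbers 1 and 2 shared 21 probes beyond 2-fold with the same sign, which is 3.0% of the first list and 2.17% of the second. A further 21 were beyond 2-fold in both with opposite signs. Numbers 1 and 3 shared 23 with the same sign, against 15 with opposite signs, and numbers 2 and 3 shared 18 against 14. Across probes, the pair differences of different numbers, which share no array, correlated at Spearman coefficients between 0.0024 and 0.182 in the 6 combinations of numbers and letter. Probes are not independent replicates, and these coefficients are given as a description.

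**Figure D1:**
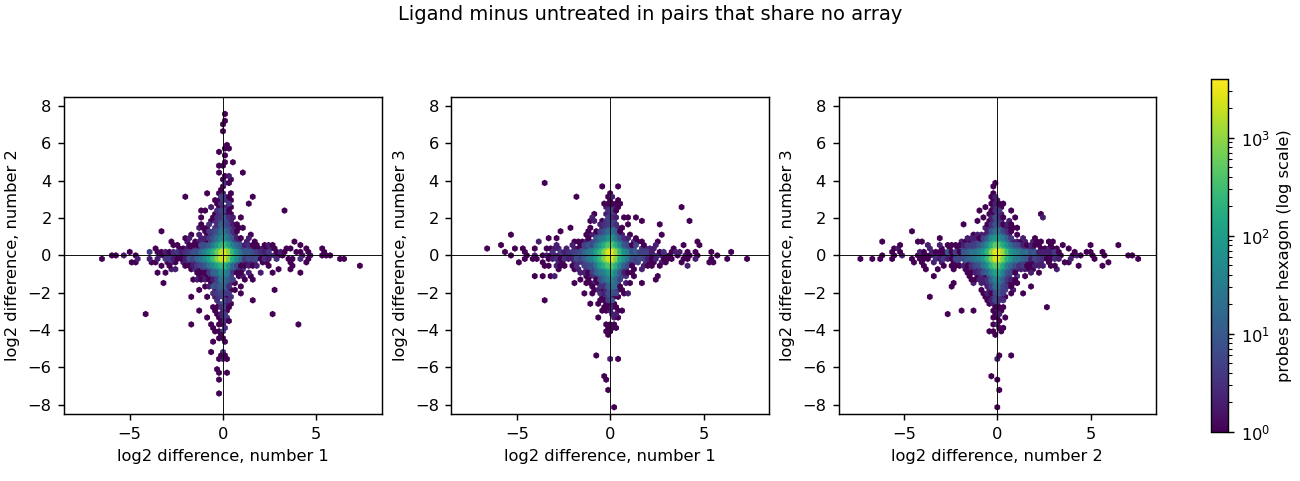
Log2 difference, ligand minus untreated, of each probe in one replicate number (x axis) against the same in another number (y axis), with letters A and B together and colour for the number of probes on a log scale. The cloud has the shape of a cross, because the probes that differ widely in one pair lie near 0 in the other; same-sign differences beyond 2-fold in both pairs are limited to 18 to 23 probes per panel.

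The few differences beyond 0.5 log2 units that all 3 pairs shared were mostly lower after the ligand. One sign in all pairs was found for 28.5% of probes, with 15.9% higher and 12.7% lower in every pair, where independent signs would give 25% in all. That order depends on where the scale puts 0, since on the values as deposited 6.88% were higher and 24.8% lower in every pair. Among probes beyond 0.5 log2 units the same way in every pair lower ones were the more frequent, with 21 lower (0.0533%) and 3 higher (0.00762%). This limit was set after the values were seen, and the count is a description with no test. The 21 lower probes comprised 14 on letter A and 7 on letter B. They came from 17 different stretches of the order in which spots are listed. Their mean log2 levels ran from 5.47 to 14.8, and only 10 of the 21 were above the median probe of their letter. The median difference of the 21 was -1.03, and 11 of the 21 were beyond 2-fold. The 3 higher probes had mean levels of 5.75, 7.97 and 8.45, all below the median probe of their letter, and differences of 1.48, 0.51 and 1.18. The lower side also led under median centring, at 20 against 6, and with neighbouring spots centred together, at 14 against 4. In the authors' processed values it was 28 against 8, and with an offset of 50 it was 11 against 0. Of the 21 lower probes, 14 were again past the limit in every pair under median centring, 11 with neighbouring spots centred and 16 in the authors' values. Of the 3 higher ones, 1 was again past it in each.

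**Figure D2:**
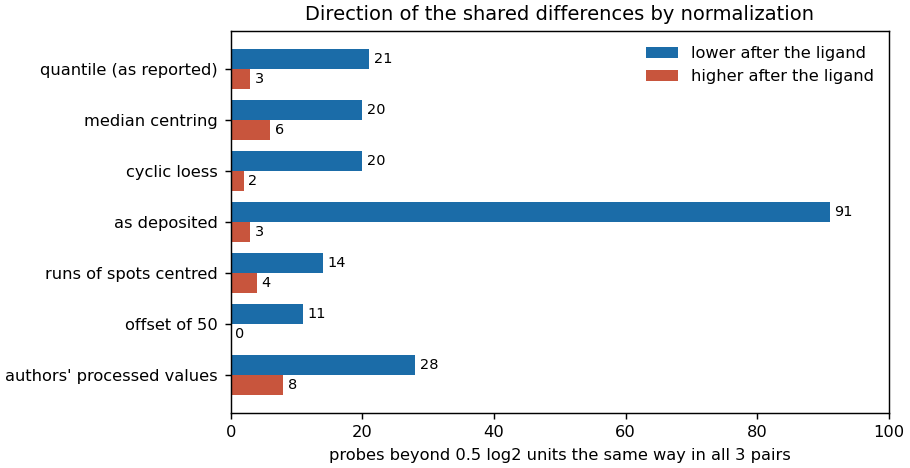
Number of probes whose log2 difference, ligand minus untreated, was beyond 0.5 in the same direction in all 3 pairs (x axis), for each way of normalizing the intensities (y axis), with lower and higher probes as separate bars. Lower probes outnumber higher ones in all 7 rows, and 21 against 3 as reported. Without normalization the lower probes number 91, and there the median difference over all probes was -0.09 log2 units.

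By the rule for named probes, 58 probes were eligible, 17 higher and 41 lower. They had an unadjusted p under 0.01, one sign in all pairs, values on all 6 arrays and a level above the median probe. The widest 2 in each direction are given with their values, and none of the 4 passed the test. Probe obshum40K:B#42298 was the brightest of the 19700 letter B probes in untreated cells and ranked 8 after the ligand. Its normalized log2 intensity was 15.66, 14.98 and 15.66 in untreated numbers 1, 2 and 3. After the ligand it was 14.09, 13.74 and 14.40. All 3 treated samples lay below all 3 untreated ones, as was so for 0.688% of probes, with 0.652% the other way. On this scale untreated numbers 1 and 3 hold the same value, because the probe had the same rank on both arrays and quantile normalization gives each rank one level. The mean log2 difference was -1.35 on the quantile scale, or 2.56-fold lower (limma adjusted p = 0.822). The pairs differed by -1.57, -1.24 and -1.26 on that scale and by -1.59, -0.59 and -1.87 with each array centred on its median, so the standard error of 0.11 holds for the quantile scale only. The deposited intensities behind it were 190568, 31405 and 19317 untreated and 63044.5, 19203 and 5520 after the ligand, and the first of these is above the range of a 16-bit scan. Divided by the array medians they were 373, 59.2 and 95.6 untreated and 124, 39.4 and 26.1 after the ligand, so on that scale the groups overlapped while each pair was lower.

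Probe obshum40K:A#41630 stood at 11.11, 9.72 and 10.73 in untreated numbers 1, 2 and 3 and at 10.09, 8.51 and 9.25 after the ligand. The groups overlapped, because the numbers differed among themselves, but every pair was lower, by -1.03, -1.21 and -1.48. It was 2.36-fold lower, a log2 difference of -1.24 (standard error 0.14, limma adjusted p = 0.822). On the quantile scale this probe and obshum40K:B#42298 were the 2 probes lower by more than 2-fold in every pair, and 0 were higher to that degree. With median centring or cyclic loess 0 probes were, and the pair differences of obshum40K:A#41630 under median centring were -1.30, -0.88 and -1.43.

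The higher probes differed less, and on the quantile scale they differed less evenly. With median centring, evenness did not divide the higher from the lower probes in this way. Probe obshum40K:B#38213 was at 9.05, 8.25 and 9.62 in untreated numbers 1, 2 and 3 and at 10.02, 9.23 and 9.91 with the ligand. Its pair differences were 0.97, 0.99 and 0.29, and the mean was 0.75 with a standard error of 0.17 (limma adjusted p = 0.822). Probe obshum40K:A#05303 was at 10.56, 11.87 and 11.91 untreated and at 10.94, 12.61 and 12.90 with the ligand. The pairs differed by 0.38, 0.73 and 0.99, with a mean of 0.70 and a standard error of 0.16 (limma adjusted p = 0.822). For both probes the groups overlapped. Both also lay in stretches of the listed spot order whose median difference was above 0 in every pair. It was 0.07 to 0.22 for the first and 0.14 to 0.18 for the second. With neighbouring spots centred, the pair differences were 0.88, 0.69 and 0.23 for obshum40K:B#38213 and 0.29, 0.55 and 0.85 for obshum40K:A#05303. For obshum40K:B#42298 they were -1.61, -1.23 and -1.14 on that scale, and for obshum40K:A#41630 they were -1.03, -1.05 and -1.33.

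**Figure D3:**
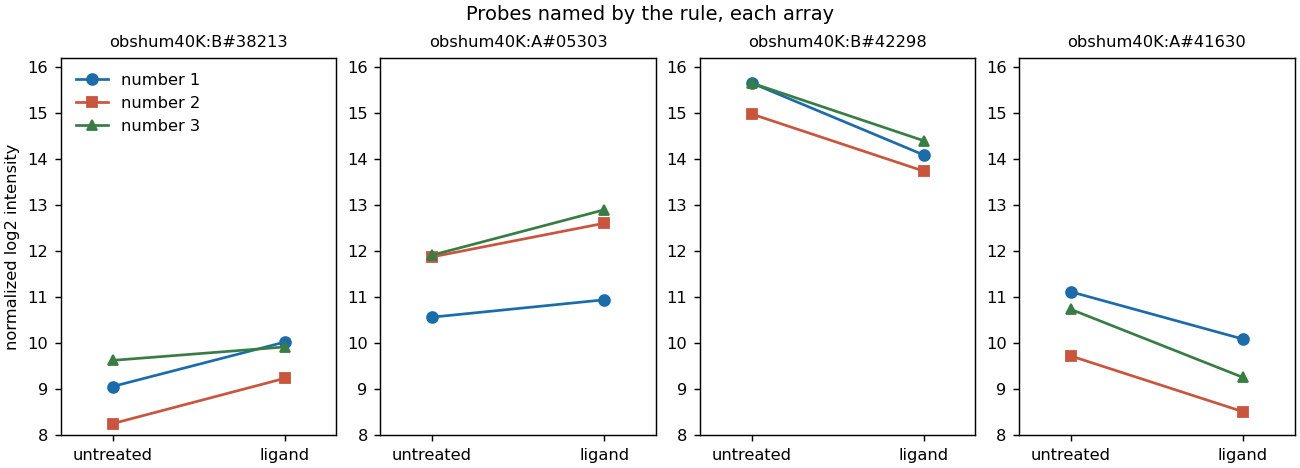
Normalized log2 intensity (y axis) of the 4 named probes in untreated and ligand-treated cells, with 1 line for each replicate number joining its pair. All 3 lines slope up in the first 2 panels and down in the last 2; on this scale the treated values of obshum40K:B#42298, 13.74 to 14.40, lie clear of the untreated ones, 14.98 to 15.66.

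The ligand difference in irradiated cells rests on other arrays, which did not choose the probes singled out above. Those cells were also given 2 Gy, so this is another condition and not a repeat of the comparison. These values come from all 12 arrays of a letter normalized together. Of the 21 lower probes 20 were measured on all irradiated arrays. Of these, 7 were lower and 13 higher after ligand and radiation than after radiation alone, while 55.4% of all probes were lower there and 44.6% higher. Their median difference in irradiated cells was 0.13, against -0.03 over all probes. Of the 3 higher probes, 2 were higher with the ligand there too.

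The 4 named probes differed from one another in this respect. For obshum40K:B#42298 the ligand difference in irradiated cells was -0.13, -0.45 and -1.94 in numbers 1, 2 and 3, lower each time and uneven, with a mean of -0.84 (limma adjusted p = 0.721). For obshum40K:B#38213 it was 0.38, 0.42 and 0.44, higher each time, with a mean of 0.41 (limma adjusted p = 0.721). For obshum40K:A#41630 it was 0.59, -0.80 and 1.48, with no shared sign, and for obshum40K:A#05303 it was 0.50, 0.90 and -0.10. The difference between the ligand effects with and without radiation was widest for obshum40K:A#41630, at 1.63 log2 units, and it did not pass (limma adjusted p = 0.968). The adjusted p of the other 3 in that test was 0.968 to 0.980. The unirradiated differences for which these probes were chosen enter that test, so its values are given only as a description.

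**Figure D4:**
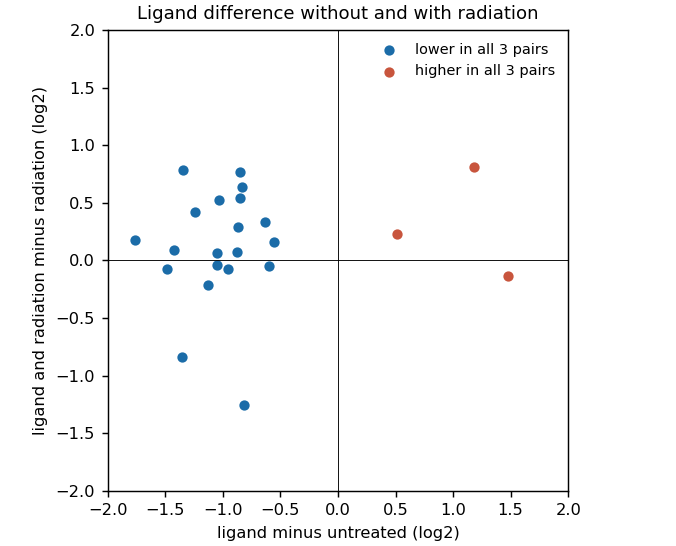
Log2 difference, ligand minus untreated (x axis), against the log2 difference, ligand and radiation minus radiation alone (y axis), for the probes beyond 0.5 log2 units the same way in all 3 unirradiated pairs, 1 point per probe. Of the 20 lower probes shown, 13 lie above 0 on the y axis and 7 below; of the 3 higher probes, 2 lie above it.

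Part of the difference within a pair followed the order of the spots. The order in which spots are listed was taken as print order and cut into 48 runs of 420 spots. The median difference of a run spanned 0.25 log2 units over letter A in number 1, 0.48 in number 2 and 0.59 in number 3. On letter B the spans were 0.38, 0.49 and 0.59. On letter B the run medians of numbers 1 and 2 moved together, with a Spearman coefficient of 0.780 over 48 runs. The first run of every 4 averaged 0.13 in number 1 and 0.11 in number 2, and the last of every 4 averaged -0.07 and -0.05. In number 3 the same places averaged -0.01 and 0.06, and 2 adjoining runs stood at -0.42 and -0.39. With each run centred on its own median before normalization, the correlation of the differences of numbers 1 and 2 on letter B went from 0.182 to 0.0238, and one sign in all pairs was found for 26.5% of probes. The part of spot position in the shared differences was not tested beyond this.

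**Figure D5:**
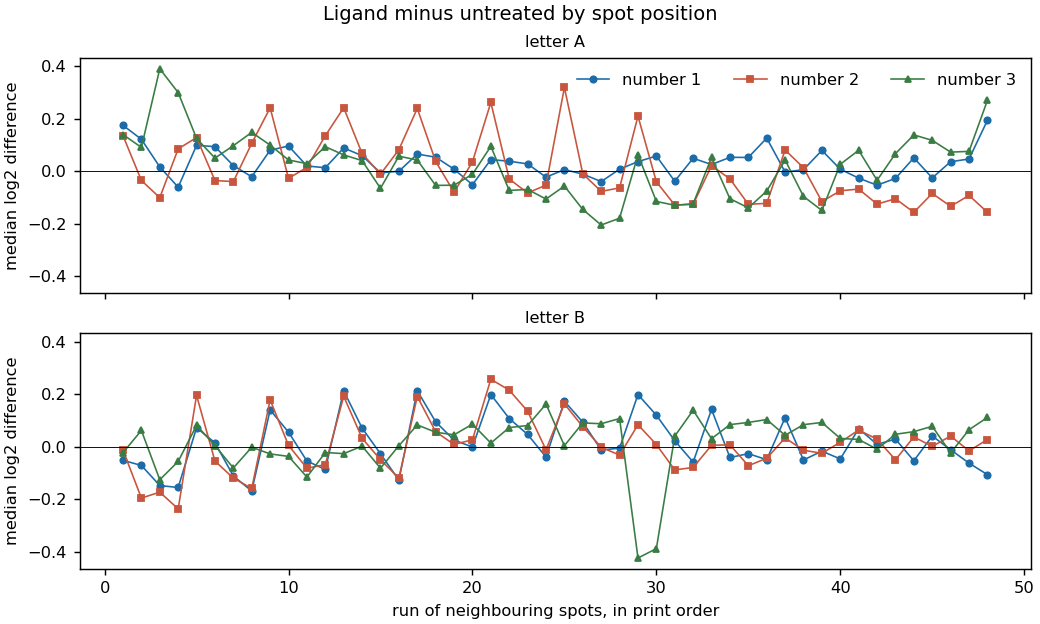
Median log2 difference, ligand minus untreated (y axis), of the probes in each of 48 runs of spots (x axis). Runs follow the order in which spots are listed, taken as print order, with 1 line per replicate number and a panel per letter. On letter B numbers 1 and 2 peak together at runs 9, 13, 17, 21 and 25, and number 3 drops to -0.42 and -0.39 at 2 adjoining runs.

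The differences were widest among the dimmest 10% of probes, with a standard deviation of 0.34 for letter A and 0.30 for letter B. Around the middle of the brightness range it was 0.22 and 0.19. The spread did not fall steadily with brightness, since in the brightest 10% it was 0.28 and 0.22. Among probes measured in all 3 pairs, the dimmest 10% held 41 differences beyond 2-fold on letter A and 21 on letter B. Over all probes tested, the differences beyond 2-fold numbered 187 and 80. In the brightest 10% of letter B, 19.2% of probes were higher in all 3 pairs and 10.2% were lower. In its dimmest 10% these shares were 11.3% and 14.6%. On letter A the brightest 10% stood at 16.9% and 13.1%.

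The arrays of numbers 1 and 2 also list spots with no human probe of the main set. Plant control oligos, which have no intended target in human RNA, had a median intensity of 0.551 to 0.727 times that of the median probe, so many probes lay at a level that such spots also reached. The ratio of ligand to untreated for this relative level was 0.950 to 1.02 over 2 numbers and 2 letters. Empty spots were at 0.0307 to 0.0718 times the median probe, and their ratio was 1.17 to 1.54, higher with the ligand in all 4 comparisons. Of 10 human control oligos printed in 6 copies per array, 4 were lower with the ligand in all 4 comparisons, 0 were higher in all 4 and 6 were mixed. Of the 13 plant control sequences 1 was lower in all 4, 3 were higher in all 4 and 9 were mixed. The letters share 0 probes of the main set, so no share over all probes in 4 such comparisons can stand beside these counts. Relative to the median probe, the human control oligo with the widest mean averaged -0.75 log2 units. On letters A and B it was at -1.19 and -1.17 in number 1 and at -0.21 and -0.44 in number 2. These comparisons come from 2 sample pairs, with letters A and B as repeat measurements of the same samples, and no test was made.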

How the data were processed

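HEK cell RNA was measured on 24 single-colour arrays. Per the labels' protocols, antisense RNA was transcribed from it with T7 polymerase and coupled to Cy3. The deposited array files hold spot intensity on a linear scale, and the file headers name only the treatment. The sources used here give no scanner, background step or scaling. The authors' processed table holds log2 intensity whose sorted values, over both letters of a sample, are nearly one set for every sample, and it served as an alternative.

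Log2 intensities, with no offset or background correction, were quantile normalized within letter over the 6 arrays. Entries marked not detected were missing, and probes with at least 2 complete pairs were tested, which left out 0. Each letter was fitted with treatment and replicate number in limma 3.58.1 under R 4.3.3 (lmFit, then eBayes), as a 2-sided test with Benjamini-Hochberg adjustment over both letters. Deviations from group means correlated at 0.796 to 0.889 between arrays of the same number, and at -0.0022 or less between other numbers. Deviations within a group sum to 0, so high values for the same number push the others down. On the ground of the same-number values, with the numbers in the titles, treated and untreated samples of one number were treated as a pair.

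The named probes are the 2 widest differences each way among probes above the median level that had one sign in all pairs and an unadjusted p under 0.01. Spot positions were taken from the order in which spots are listed, in runs of 420, a length set for this comparison. Those of number 3 follow the identifier order found on numbers 1 and 2. The fit was tested on simulated data. The comparison, the lists and the tests were chosen with earlier results of these data known. The number of arrays limits the precision. Alternatives covered the block, the samples fitted, normalization, spot position, filters, weights and left-out pairs.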

Additional observations from a re-analysis of the deposited data

How the results depend on the processing

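The count of probes past an adjusted p of 0.05 was 0 in all 18 alternatives, where the lowest adjusted p of any probe ran from 0.181, with the replicate block as a random term, to 1. At an unadjusted p under 0.05 the count of 1634 became 21 with no replicate block, 393 over all 12 arrays with the replicate block, 45 over all 12 arrays without it, 985 among probes above the median intensity, where fewer probes were tested, and 1076 to 1503 with 1 number left out, lowest without number 1. Its share of higher probes was 46.3%, 9.26% on values as deposited and 56.1% in the authors' processed values. At an unadjusted p under 0.01 the authors' values gave 56 lower and 49 higher probes, nearer to balance than the 94 and 39 reported. The 267 differences beyond 2-fold became 132 with an offset of 50, 121 among probes above the median intensity, and 366 to 500 with 1 number left out, where fewer pairs were averaged, highest without number 3. Leaving out a number gave a spread of the differences of 0.27 to 0.30. The share with one sign in all pairs was 29.2% with median centring, 31.7% as deposited, 26.5% with runs of spots centred, 29.2% above the median intensity and 27.7% in the authors' values; it has no value with a pair left out, and settings of the fit alone do not alter it. The causes were not tested. The log2 difference of the 4 named probes kept its sign in all 18 alternatives, from -1.70 to -1.16 for obshum40K:B#42298 and from -1.41 to -1.09 for obshum40K:A#41630. It ran from 0.59 to 1.01 for obshum40K:B#38213 and from 0.56 to 0.78 for obshum40K:A#05303. The kept sign was largely fixed in advance, because these probes were chosen from the same arrays for one sign in all pairs.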
